A study of Mus musculus with 6 samples.

Results

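Interferon-stimulated genes (ISGs), which cells switch on when interferon reaches them, were followed by RNA sequencing in mouse liver. A list of 40 ISGs was matched by gene symbol to the deposited expression table of 20673 genes, and read counts were joined by gene identifier. All 40 were found. The livers came from C57BL/6J mice, 3 on a regular diet (RD) and 3 on a high-cholesterol diet (HCD) for 3 days, with 1 library per liver. No gene change and no other treatment is named for either group. The HCD also held cocoa butter and sodium cholate, so the parts of the diet cannot be told apart. The study's methods describe young adult mice of both sexes, while the sex and cage of each mouse and the day of preparation are given by no source used here, and the libraries of each diet carry a name series of their own, so a shared preparation and the diet cannot be told apart either.

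The totals lay between 13771630 and 23129576 counts for the RD libraries and between 13935491 and 18545549 for the HCD libraries. The tissue label was checked against 10 hepatocyte markers, all detected in every liver, whose summed level was 97594 to 126596 CPM (counts scaled by edgeR's TMM factors to a common total) with RD and 102675 to 143558 with HCD. HCD replicate 1 stood apart in its sex chromosomes. Xist, which only female cells express, had 5032 counts in it and none elsewhere, while 4 Y-linked genes were at 0 in it and were detected in the other 5 livers. Values without HCD replicate 1 are therefore given for some results that rest on it. For several other genes only ranges over fits without single livers are given.

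Type I interferons (the alpha and beta forms) act through a receptor bound to the kinases Jak1 and Tyk2. A complex that holds the transcription factors Stat2 and Irf9 then binds a DNA element called the ISRE and turns on genes such as Isg15, the Ifit genes and the Oas genes. Type II interferon (interferon gamma) acts through another receptor and mainly through the GAS element, which turns on Irf1 and the guanylate-binding (Gbp) and immunity-related (Irgm, Igtp) GTPases. The groups are not strict, since many ISGs answer to both. Hepatocytes, Kupffer cells and other liver cells all carry such receptors, and unphosphorylated forms of the same factors keep many ISGs at a low level without infection.

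A few promoters are shown because they hold the elements through which the genes of both groups answer to interferon. RefSeq windows of 300 bases (250 before the transcription start and 50 after it, GRCm38.p6) were at hand for 31 of the 40 genes. The ISRE core was searched on both strands as GAAA, any 2 bases and GAAA again, which reads TTTC, any 2 bases and TTTC on the other strand. The GAS element was searched as TTCNNNGAA, which reads alike on both strands. Capitals mark these matches in stretches of 70 bases, each printed 5′ to 3′ on the strand of its gene. Isg15, which encodes a ubiquitin-like protein, has overlapping ISRE cores at chr4:156200851-156200920 (minus strand). Ifit1, which encodes a protein that binds foreign RNA, has separate cores at chr19:34640764-34640833 (plus strand), and so does Ifit3 at chr19:34583360-34583429 (plus strand).
Isg15: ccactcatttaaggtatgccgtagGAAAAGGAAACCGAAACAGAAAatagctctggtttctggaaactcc
Ifit1: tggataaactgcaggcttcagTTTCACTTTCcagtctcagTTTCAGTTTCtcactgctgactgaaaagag
Ifit3: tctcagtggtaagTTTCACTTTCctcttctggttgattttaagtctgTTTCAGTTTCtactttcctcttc

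Of the type II genes, Irgm2 (chr11:58214877-58214946, plus strand) and its neighbour Igtp (chr11:58199486-58199555, plus strand) carry a GAS element just before an ISRE core, and their stretches differ in 2 of 70 bases. Irf1 (chr11:53769893-53769962, plus strand) has a GAS element and no ISRE core in its window. Stat2 (chr10:128270248-128270317, plus strand) has 1 ISRE core, and Bst2 (chr8:71537563-71537632, minus strand) has a GAS element that overlaps its ISRE cores.
Irgm2: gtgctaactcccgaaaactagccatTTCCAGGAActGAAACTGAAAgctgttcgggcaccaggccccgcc
Igtp: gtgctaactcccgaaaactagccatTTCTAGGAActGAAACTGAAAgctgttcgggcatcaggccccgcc
Irf1: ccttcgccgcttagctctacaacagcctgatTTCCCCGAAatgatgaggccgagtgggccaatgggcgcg
Stat2: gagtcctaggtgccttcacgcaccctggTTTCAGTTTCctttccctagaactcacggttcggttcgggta
Bst2: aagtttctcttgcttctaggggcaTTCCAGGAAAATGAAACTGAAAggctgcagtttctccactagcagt

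An ISRE core lay in the window of 18 of the 31 genes (58.1%), against 3.99% of all 27025 genes with a window. It was present in 6 of 9 type I genes and in 6 of 6 type II genes. The GAS element lay in 8 of 31 (25.8%), against 9.55% of all genes, with 2 of 9 type I genes and 3 of 6 type II genes. A match describes letters in a window and not a bound site.

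The 40 ISGs spanned a wide range of levels at rest. On the authors' FPKM, which are per gene length, 13 had a 6-liver mean of at least 10, 24 lay between 1 and 10, and 3 (Ifi44, Oas2 and Oas3) lay under 1. The highest were Bst2 (365 FPKM), which encodes tetherin, a membrane protein that holds budding viruses at the cell surface, then Iigp1 (129 FPKM), an immunity-related GTPase, Ifi27 (102 FPKM) and Lgals3bp (39.2 FPKM). The lowest was Oas3 (0.160 FPKM). Among type I genes Isg15 led with 13.0 FPKM, and among type II genes Irgm2 led with 24.5 and Igtp followed with 23.6. All 40 ISGs had enough counts for the test, the sparsest being Oas3, whose lowest library held 9 counts.

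The share of ISGs called between the diets was near that of all genes. With p-values of edgeR's quasi-likelihood F test adjusted by the Benjamini-Hochberg method over all 13105 tested genes, 2 of the 40 (5%) had an adjusted p under 0.05, against 3.27% of all genes tested. Both were lower with HCD: Stat2 and Parp14. None of the 40 was called higher, against 1.95% of all genes tested, and the called lower share of all genes was 1.32%. At an unadjusted p of at most 0.05, 1 ISG was higher (Bst2) and 7 were lower (Dtx3l, Ifi47, Ifih1, Iigp1, Irf9, Parp14 and Stat2), where all genes gave 11.1% higher and 9.81% lower. Log2 fold changes of HCD over RD were below 0 for 26 of the 40 and above 0 for 14, against 49.3% and 50.7% of all genes, and their median was -0.12, against 0.0074 for all genes. The diets did not overlap in any liver for 7 of the 40 (17.5%), a smaller share than the 27.6% of all genes: Bst2 lay above in all HCD livers (1 of 40, against 14.0% of all genes), and Ddx58, Dtx3l, Iigp1, Irf9, Parp14 and Stat2 lay below (6 of 40, against 13.7%). In whole liver, fewer cells of a type and less RNA per cell cannot be told apart. DESeq2 called 5 of the 40, against 6.97% of the 14223 genes it gave an adjusted p. It added Dtx3l and Irf9, for 4 lower (3.09% of all genes), and Bst2, for 1 higher (3.88% of all genes).

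**Figure D1:**
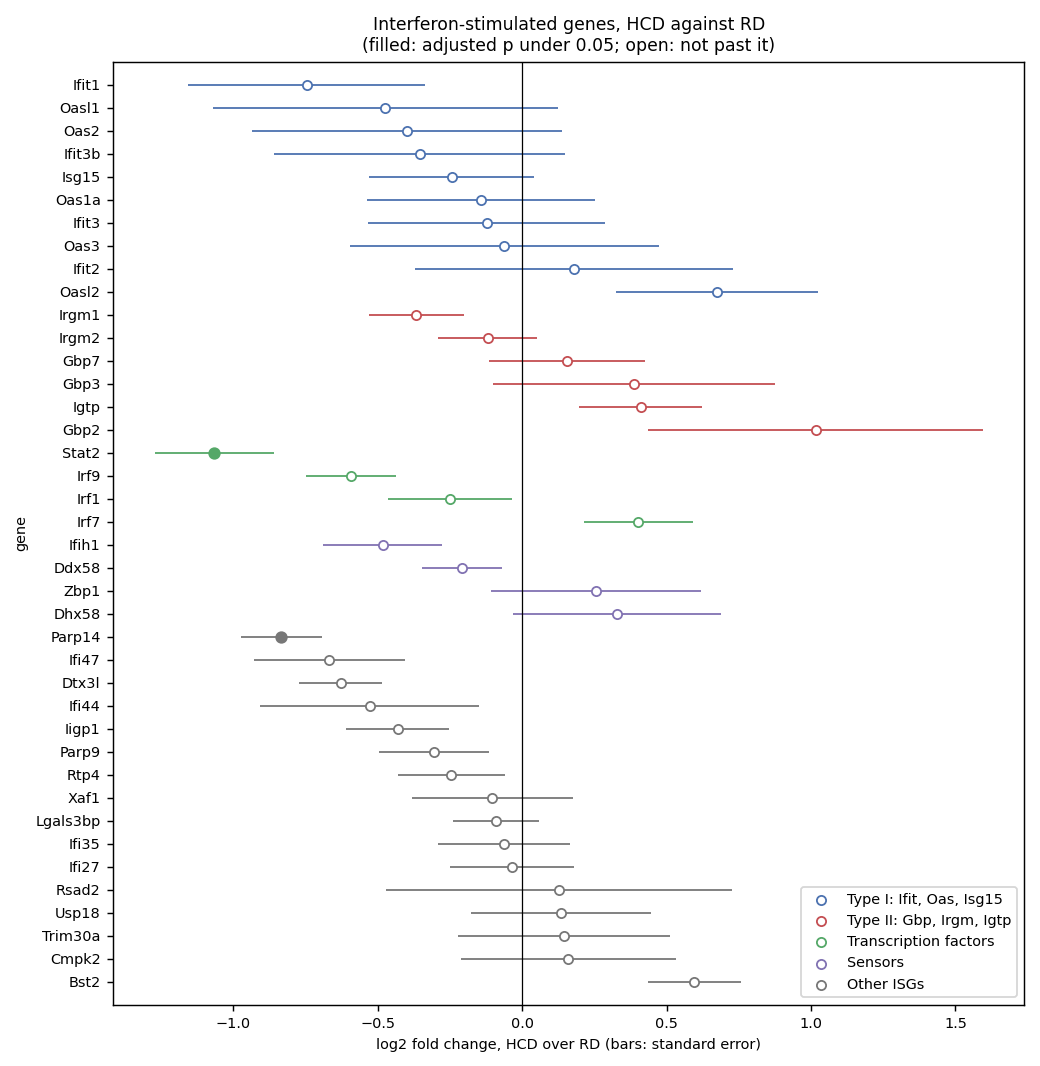
Log2 fold change of HCD over RD for each of the 40 ISGs (x axis), grouped by role and colour, with the standard error as a bar. Filled points (Stat2 and Parp14) have an adjusted p under 0.05, and 26 of the 40 points lie left of 0.

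Stat2 (ENSMUSG00000040033), the partner of Irf9 in the type I complex, fell most of the 40. Its level was 89.3, 106 and 76.9 CPM in the RD livers and 34.4, 39.2 and 56.5 CPM in the HCD livers. Every HCD liver lay below every RD liver, with HCD replicate 3 nearest to the RD livers. The means were 90.6 ± 14.4 CPM with RD and 43.4 ± 11.6 CPM with HCD (SD, n = 3), and the log2 fold change was -1.06 (standard error 0.21, 95% interval -1.54 to -0.59, adjusted p = 0.0350). The call held without HCD replicate 3 (adjusted p = 0.0341), and was lost without any other liver, at an adjusted p of 0.0625 without HCD replicate 1 and 0.0598 to 0.149 over these 5 livers. It was also lost with the trend of fold change on gene length removed (log2 fold change -0.97, adjusted p = 0.0714) and in limma-trend on log2(FPKM + 0.1) (adjusted p = 0.0507), and held on log2(FPKM + 1) (0.0475).

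Irf9, the DNA-binding part of the same complex, had 40.6, 38.2 and 33.6 CPM with RD and 23.7, 22.0 and 28.9 CPM with HCD. The diets did not overlap, and the log2 fold change of -0.59 (standard error 0.16) had an adjusted p of 0.0796. Irf7, which amplifies type I interferon production, was at 19.0, 16.4 and 26.1 CPM with RD and 26.2, 26.1 and 29.3 CPM with HCD (log2 fold change 0.40, adjusted p = 0.270). For Irf1, an early target of interferon gamma, the log2 value was -0.25 (adjusted p = 0.546), over a range of -0.44 to -0.11 without single livers.

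Parp14 (ENSMUSG00000034422), an ADP-ribosyltransferase, lies next to Dtx3l, a ubiquitin ligase, and Parp9, its binding partner, in 1 cluster on chromosome 16. Parp14 was at 35.3, 40.7 and 40.6 CPM with RD and 21.6, 24.1 and 19.8 CPM with HCD. Both diets were tight and well apart, and the log2 fold change was -0.83 (standard error 0.14, 95% interval -1.16 to -0.51, adjusted p = 0.0253). The call held without HCD replicate 1 (0.0454) or HCD replicate 2 (0.0369) and with the length trend removed (0.0439), and was lost without any RD liver or HCD replicate 3, at adjusted p values of 0.0680 to 0.119. It was also lost in limma-trend on log2(FPKM + 1) (0.0516) and log2(FPKM + 0.1) (0.0502). Dtx3l was at 62.1, 57.2 and 47.5 CPM with RD and 36.0, 38.5 and 33.4 CPM with HCD, again without overlap (log2 fold change -0.63, standard error 0.14, adjusted p = 0.0557). Parp9 overlapped between the diets, at 56.7, 45.8 and 39.6 CPM with RD and 31.5, 37.4 and 46.2 CPM with HCD (log2 fold change -0.31, adjusted p = 0.399, and -0.18 without HCD replicate 1 or -0.16 without RD replicate 1). Dtx3l and Parp9 share 458 exon bases on opposite strands, and since no source used here gives the strand of counting, reads there cannot be told apart. On the same strand, Parp14 shares 110 exon bases with Gm49730 and Irf9 shares 123 with Rnf31. Ifi47 shares 111 with Olfr56 and Rtp4 shares 296 with Gm45338, also on the same strand.

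**Figure D2:**
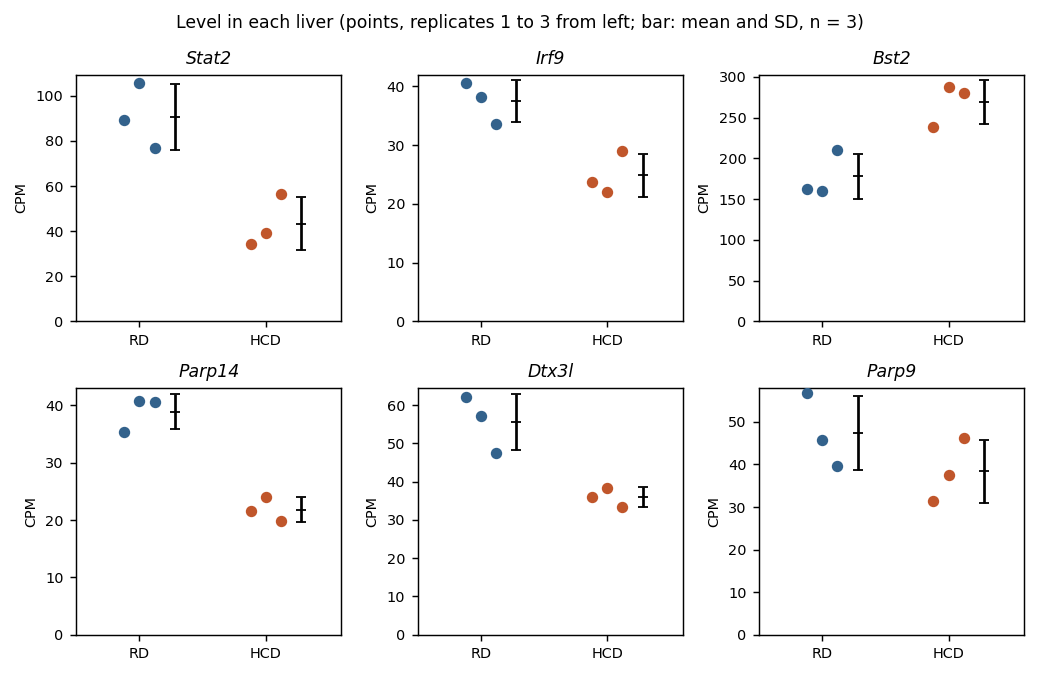
CPM (y axis, from 0) of Stat2, Irf9, Bst2, Parp14, Dtx3l and Parp9 in each liver, with RD left and HCD right, replicates 1 to 3 from the left, and a bar for the mean and SD (n = 3). The diets overlap for Parp9 and for none of the other 5.

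The 10 type I genes (Isg15, 4 Ifit genes, 3 Oas genes and 2 Oasl genes) showed no call, and no unadjusted p was as low as 0.05. Log2 fold changes were below 0 for 8 of them, and their median was -0.19, which turned to 0.10 without RD replicate 3. Isg15 was at 6.25, 5.72 and 9.64 CPM with RD and 7.13, 4.83 and 6.32 CPM with HCD (log2 fold change -0.24, 95% interval -0.90 to 0.41, adjusted p = 0.671). Ifit3 was at 8.56, 4.26 and 14.1 CPM with RD and 11.1, 7.10 and 6.57 CPM with HCD (log2 fold change -0.12, adjusted p = 0.893). Ifit1 was at 7.69, 4.81 and 13.3 CPM with RD and 6.17, 6.07 and 3.16 CPM with HCD (log2 fold change -0.75, 95% interval -1.68 to 0.19, adjusted p = 0.341). In all 3 genes RD replicate 3 was the highest liver and the diets overlapped. The log2 fold change of Ifit1 was -0.29 without RD replicate 3 and -1.03 without RD replicate 2.

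The same RD liver led most of the group. RD replicate 3 was the highest RD liver for 9 of the 10 genes and the highest of all 6 livers for 6, while RD replicate 2 was the lowest RD liver for 7. The standard deviation within a diet had a median of 0.59 on the log2 scale for these 10 genes, against 0.28 for all genes tested. Their median level was 4.20 CPM, against 13.4 CPM for all genes tested, and the spread was not compared at matched levels. Oasl1, which encodes a protein related to the oligoadenylate synthetases, spread from 1.72 CPM in HCD replicate 1 to 10.1 CPM in HCD replicate 3 (log2 fold change -0.47, adjusted p = 0.695). The Oasl1 value was -0.06 without HCD replicate 1 and -1.59 without HCD replicate 3, called in neither case. Oasl2 had the largest value above 0 of the group, a log2 fold change of 0.67 (adjusted p = 0.312). The remaining 5 were Ifit2 (0.18), Oas3 (-0.06), Oas1a (-0.14), Ifit3b (-0.35) and Oas2 (-0.40), all on the log2 scale. Ifit3 and Ifit3b are 97.8% identical over 1700 aligned bases, and Oas1a is 97.5% identical to Oas1g over 1863, so reads could be split or shared between these copies and their single values are uncertain. A processed pseudogene is 95.2% identical to Isg15 over 482 bases.

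**Figure D3:**
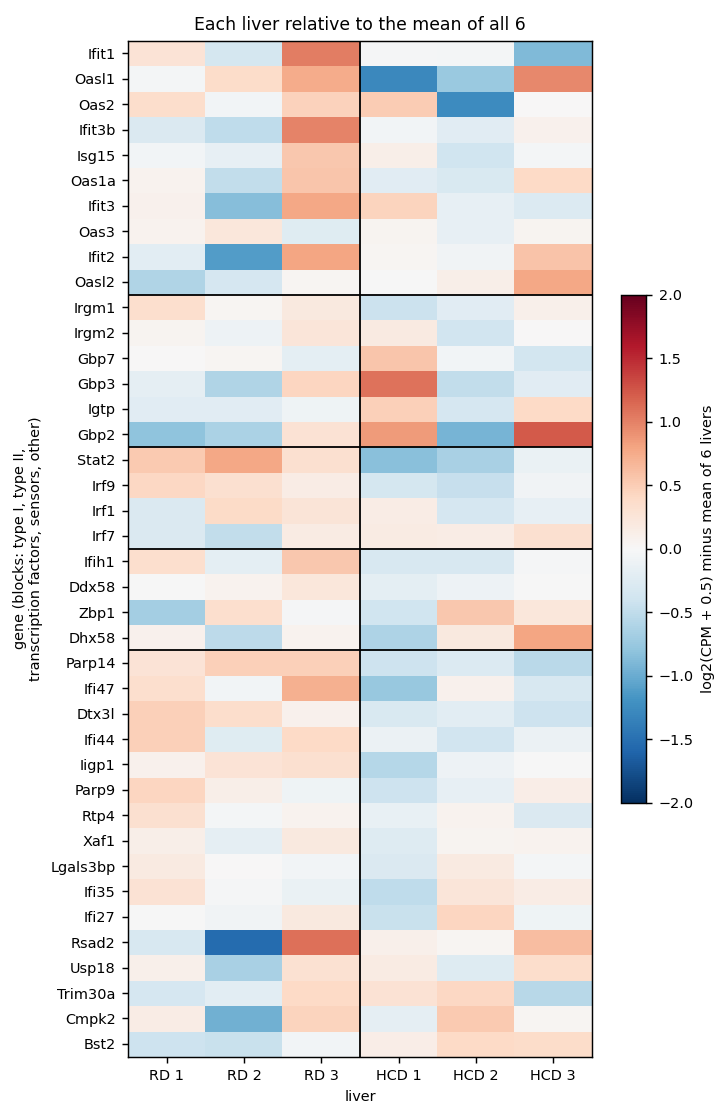
Each liver (columns, 3 RD and 3 HCD) for each ISG (lines, in blocks by role), coloured by log2(CPM + 0.5) minus the mean of the 6 livers, red above and blue below. RD replicate 3 is the highest liver for 6 of the 10 type I genes in the upper block, and Stat2, Irf9, Parp14 and Dtx3l are red in all RD livers and blue in all HCD livers.

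The 6 type II genes (Gbp2, Gbp3, Gbp7, Irgm1, Irgm2 and Igtp), which act on the membranes of vacuoles that hold pathogens, also gave no call and no unadjusted p as low as 0.05. Log2 fold changes were above 0 for 4 of them, and their median was 0.27. Irgm2 was at 63.1, 56.7 and 71.9 CPM with RD and 69.0, 46.3 and 61.0 CPM with HCD (log2 fold change -0.12, adjusted p = 0.735). Igtp was at 26.9, 26.7 and 29.5 CPM with RD and 44.0, 24.8 and 41.6 CPM with HCD (log2 fold change 0.41, adjusted p = 0.314, and 0.26 without HCD replicate 1). Irgm1 was at 78.5, 63.9 and 71.3 CPM with RD and 46.0, 53.0 and 67.0 CPM with HCD (log2 fold change -0.37, adjusted p = 0.249). HCD replicate 2 was the lowest liver for Irgm2 and Igtp, and HCD replicate 1 for Irgm1.

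Gbp2 had the largest log2 fold change above 0 of the 40, at 1.02 (adjusted p = 0.358), but its HCD livers were split, at 8.54, 2.14 and 11.2 CPM, against 2.36, 2.72 and 5.64 CPM with RD. HCD replicate 2 lay below all RD livers. Without single livers the log2 fold change of Gbp2 ran from 0.58 (without HCD replicate 3) to 1.52 (without RD replicate 3). Gbp3 (0.39) and Gbp7 (0.16) were above 0 on the log2 scale with all livers and below 0 without HCD replicate 1 (-0.34 and -0.17). Without that liver the median of the 6 type II genes turned from 0.27 to -0.21. Igtp and its neighbour Irgm2 share 162 exon bases, and Gbp7 shares 637 exon bases with a pseudogene on the same strand.

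The type I and type II genes were then set against each other in each liver. As the mean of log2(CPM + 0.5) minus the mean of the 6 livers, the type I genes were at -0.03, -0.33 and 0.57 in the RD livers and -0.04, -0.32 and 0.17 in the HCD livers. The type II genes were at -0.14, -0.25 and 0.15 in the RD livers and 0.45, -0.40 and 0.19 in the HCD livers. RD replicate 2 and HCD replicate 2 were the lowest livers of their diets in both groups of genes, and the diets overlapped in both. Type I minus type II was 0.10, -0.08 and 0.42 with RD and -0.50, 0.08 and -0.02 with HCD, so HCD replicate 1 was the lowest, and the diets overlapped. The median log2 fold change of type I genes minus that of type II genes was -0.46. This difference was -0.04 without HCD replicate 1, -0.16 without RD replicate 3, and -0.01 with broader groups of 16 type I and 9 type II genes. The contrast between the groups therefore rested on HCD replicate 1, on RD replicate 3 and on the choice of genes.

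**Figure D4:**
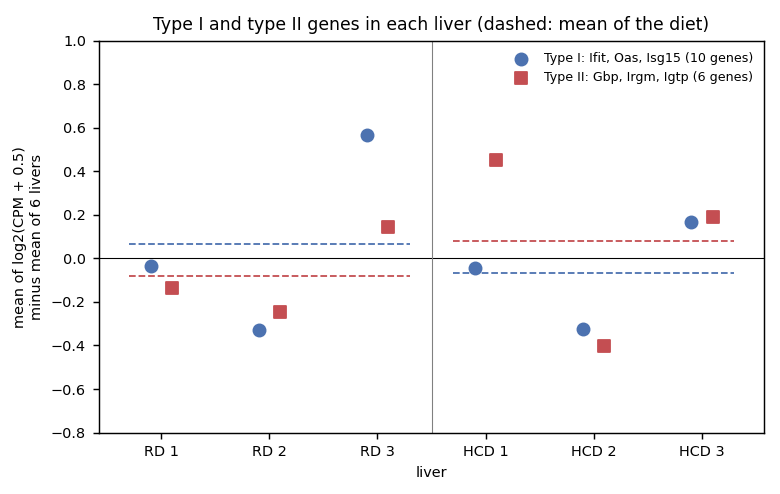
Mean of log2(CPM + 0.5) minus the mean of the 6 livers (y axis) for the 10 type I genes (circles) and the 6 type II genes (squares) in each liver, with dashed lines for the mean of each diet. The points of the diets overlap for both groups, and the widest gap between circle and square is in HCD replicate 1.

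The sensors of viral nucleic acid gave no call. Ifih1, which encodes MDA5, a sensor of long double-stranded RNA, was at 34.9, 23.9 and 40.2 CPM with RD and 21.9, 21.9 and 27.2 CPM with HCD (log2 fold change -0.48, adjusted p = 0.227). Ddx58, which encodes RIG-I, a sensor of RNA ends, was at 23.0, 24.3 and 27.0 CPM with RD and 19.96, 21.4 and 22.9 CPM with HCD. Its diets did not overlap, by a small margin (log2 fold change -0.21, adjusted p = 0.426). Dhx58, which encodes LGP2, a regulator of both sensors, had a log2 fold change of 0.33, and Zbp1, a sensor of Z-form nucleic acid, one of 0.26 (adjusted p = 0.647 and 0.733).

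Bst2 was the member with the clearest value above 0. Its level was 163, 160.3 and 210.1 CPM with RD and 238, 288 and 280.4 CPM with HCD, with every HCD liver above every RD liver. The log2 fold change was 0.60 (standard error 0.16), and edgeR's adjusted p = 0.0877, over a range of 0.0171 (DESeq2) to 0.328 across all alternatives. With the length trend removed it was 0.36 (adjusted p = 0.242). Iigp1 lay the other way, at 286, 323 and 334 CPM with RD and 180.5, 251 and 268 CPM with HCD, without overlap (log2 fold change -0.43, adjusted p = 0.215). HCD replicate 1 was its lowest liver, and without that liver the log2 fold change was -0.28. Ifi47, another immunity-related GTPase, overlapped between the diets (log2 fold change -0.67, adjusted p = 0.194), at 36.3, 27.7 and 47.6 CPM with RD and 16.8, 30.7 and 23.0 CPM with HCD.

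The other 10 ISGs had adjusted p values of at least 0.462. Below 0 on the log2 scale were Ifi44 (-0.53), Rtp4, a chaperone of membrane receptors (-0.25), Xaf1 (-0.10), Lgals3bp, a secreted glycoprotein (-0.09), Ifi35 (-0.06) and Ifi27 (-0.04). Above 0 were Cmpk2, a mitochondrial nucleotide kinase (0.16), Trim30a (0.14), Usp18, which removes Isg15 from proteins and dampens the type I receptor (0.14), and Rsad2, which encodes viperin (0.13). Rsad2 varied more within the RD group than between the diets, at 4.85, 1.81 and 14.0 CPM with RD and 6.67, 6.41 and 9.81 CPM with HCD. Its neighbour on chromosome 12, Cmpk2, was lowest in RD replicate 2 too, at 4.26 CPM.

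Of 122 other gene symbols of interferon production, signalling and response, 97 were in the tables. Some of the 122 are second names of a listed gene, such as Sting1 beside Tmem173. Of the 97, 88 could be tested, of which 1 was called higher and 3 lower, where all genes tested gave 1.95% higher and 1.32% lower. The median log2 fold change of the 88 was -0.02. It was -0.36 for 15 genes of interferon induction, 0.08 for 15 of receptors and signalling, and 0.11 for 58 other response genes. At an unadjusted p of at most 0.05, 10 of the 88 were higher and 13 lower, where all genes tested gave 11.1% higher and 9.81% lower. Of 21 interferon genes 2 were in the tables: Ifng had 4 counts, all in RD replicate 3, and Ifnk had 5, all in RD replicate 2. The other 19, Ifnb1 among them, were not analysed here. For the receptors, the type I chains Ifnar1 (-0.26) and Ifnar2 (0.24) and the type II chains Ifngr1 (0.47) and Ifngr2 (0.42) had log2 fold changes with adjusted p values of 0.201 to 0.420.

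Lower with HCD were Tyk2 and Stat3 among the signalling genes. Tyk2, a kinase of the type I receptor, was at 29.8 ± 2.12 CPM with RD and 17.5 ± 2.44 CPM with HCD (SD, n = 3; log2 fold change -0.77, adjusted p = 0.0388). Stat3, which carries signals of interleukin 6 in the liver, was at 161, 195 and 203 CPM with RD and 90.1, 80.1 and 84.1 CPM with HCD (log2 fold change -1.14, adjusted p = 0.00948). Stat3 lost its call only without RD replicate 2 (adjusted p = 0.0563) among the single livers left out, while Tyk2 kept its call only without HCD replicate 1 (0.0491) and reached 0.162 without RD replicate 2. Tyk2 also lost its call with library sizes alone (0.0686), with the length trend removed (0.0570), on log2(FPKM + 1) (0.0696) and on log2(FPKM + 0.1) (0.0703). Gm4951, an immunity-related GTPase gene like Iigp1, was at 139 ± 12.4 CPM with RD and 74.0 ± 14.5 CPM with HCD (log2 fold change -0.91, adjusted p = 0.0308). Ifitm2, a membrane protein that blocks viral entry, was the 1 called higher, at 90.3 ± 12.3 CPM with RD and 172 ± 18.4 CPM with HCD (log2 fold change 0.93, adjusted p = 0.0225). With the length trend removed Ifitm2 was at 0.64 (adjusted p = 0.0784). Both Gm4951 and Ifitm2 lost their calls without any RD liver or HCD replicate 3, at adjusted p values of 0.0711 to 0.131.

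Markers of other liver cells differed between the livers. The summed level of 11 Kupffer cell markers was 172, 215 and 282 CPM with RD and 516, 458 and 241 CPM with HCD, so HCD replicate 3 lay within the RD livers. Of these 11 markers 1 was called, Cd68, a lysosomal protein of macrophages (log2 fold change 1.24, adjusted p = 0.0277), where 1.95% of all genes tested were called higher. At an unadjusted p of at most 0.05, 6 were higher and 0 lower, where all genes tested gave 11.1% higher and 9.81% lower. Every HCD liver lay above every RD liver for 2 of the 11, against 14.0% of all genes. The summed level of the leukocyte markers was 15.3 to 26.8 CPM with RD and 24.2 to 41.2 CPM with HCD, of which 19 of 20 were in the tables, 8 (Cd3e and Ms4a1 among them) were at 0 in some liver, and none of the 7 that could be tested was called. Stellate markers were at 323 to 403 CPM with RD and 363 to 637 CPM with HCD, endothelial markers at 149 to 259 and 194 to 300 (299.8 in HCD replicate 1), and cholangiocyte markers at 58.1 to 113 and 79.3 to 119 CPM. HCD replicate 1, which was highest for Kupffer, leukocyte, stellate and endothelial markers, was also the highest liver for 4 of the 40 ISGs (Gbp3, Gbp7, Igtp and Oas2) and the lowest for 12, Stat2 and Iigp1 among them. Of all 13105 genes tested, it was the highest liver for 2548 and the lowest for 2536. RD replicate 3 was the highest RD liver for Kupffer, leukocyte, stellate and endothelial markers and the lowest for cholangiocyte markers. The part of these cells in the ISG values was not tested.

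Fold changes varied with gene length over all genes. In 4 equal classes of length their median log2 fold change was 0.23 for the shortest genes (57 to 2533 bases), then 0.04 and -0.05, and -0.14 for the longest (6629 to 123179 bases). The ISGs did not follow this order, with medians of -0.12 (11 genes), 0.14 (13), -0.38 (12) and -0.35 (4). Bst2 (903 bases) lies in the shortest class, Stat2 (5926) and Dtx3l (5725) in the next to longest and Parp14 (9306) in the longest. With the trend removed, the median of the 40 ISGs was -0.20, and Parp14 was the only one of them called.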

How the data were processed

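Liver RNA from 3 RD and 3 HCD mice was sequenced, and Novogene made the libraries, sequenced them and analysed the data. The authors deposited raw read counts per gene, whole numbers without normalization, and FPKM, scaled to gene length and to a library total that is not stated. STAR, HTSeq, DESeq2, edgeR and the build GRCm39 are listed in the submitters' processing notes without role or version. The authors also deposited their own log2 fold changes and p-values, which were not used. Samples were grouped by their labels.

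Genes with low counts were removed with edgeR 4.0.16 (filterByExpr by diet), leaving 13105 of 20673, and TMM factors were 0.886 to 1.07. A quasi-likelihood F test of diet without covariates was run in R 4.3.3, and p-values were adjusted by Benjamini-Hochberg over all genes tested, called under 0.05. CPM are TMM-scaled counts, and 0.5 was added before log2. A count of 0 allows up to 3 counts, or 0.130 to 0.243 CPM, for counting error only. An exact two-sided permutation test of 3 livers against 3 gives no p under 0.1, the value of each gene whose diets did not overlap. The script was tested on simulated data.

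All 40 ISGs are named by role, and of the other interferon genes each called gene, Ifnb1, Ifng and the receptor chains. A further gene that this rule names is not reported here. The members and lists were chosen with earlier results of these data known. Alternatives were DESeq2 1.42.0, RLE factors, library sizes alone, no filter or a mean of 50 counts, limma-trend (limma 3.58.1) on log2 of FPKM plus 1 or 0.1, the gene length trend removed by loess offsets (span 0.5, degree 1), the replicate number as a block, and each liver left out with the filter rerun. Overlapping exons and near copies (at least 200 bases and 95% identity, minimap2 2.31) come from GENCODE on GRCm38. The notes list GRCm39 and the role of that build is not given, so coordinates are given for RefSeq promoters only. Implied gene lengths matched that annotation within 0.1% for about 95.0% of genes.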

Additional observations from a re-analysis of the deposited data

How the results depend on the processing

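Stat2 and Parp14 were lower with HCD under all 15 alternatives, with log2 fold changes of -1.31 to -0.92 and -0.91 to -0.78 when single livers were left out, while their calls changed. The number of ISGs called was 5 with DESeq2, 3 without the filter on low counts (adding Dtx3l, adjusted p = 0.0431), 1 on log2(FPKM + 1) (Stat2), 0 on log2(FPKM + 0.1), 1 with the length trend removed (Parp14) and 0 to 1 without single livers, of which RD replicates 1, 2 and 3 each left 0. Over all genes it was 992 with DESeq2, 649 without the filter, 374 on log2(FPKM + 1), 344 on log2(FPKM + 0.1), 251 with the length trend removed and 36 to 335 without single livers (the fewest without RD replicate 1). With library sizes alone 319 genes were called, 158 higher and 161 lower, against 255 higher and 173 lower with TMM factors, and the same 2 ISGs were called. With the replicate number as a block, 136 genes and 0 ISGs were called, Stat2 at an adjusted p of 0.0757 and Parp14 at 0.0600, and Tyk2 (0.0823) and Gm4951 (0.0504) lost their calls too. No source used here states a litter or day shared by livers of 1 number. The correlations of same-numbered livers were -0.076, 0.088 and -0.041, and those of differently numbered livers ran from -0.107 to 0.133. With 3 livers per diet they cannot tell whether same-numbered livers shared a litter, cage or day.

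The median log2 fold change stayed below 0 for the 40 ISGs (-0.22 to -0.023 without single livers), and ran from -0.42 to 0.10 for type I genes, where it lay above 0 without RD replicate 3, and from -0.21 to 0.42 for type II genes. The type II median was -0.12 with the broader group. Type I minus type II was -0.68 to -0.036 without single livers and -0.013 with the broader groups. The cause was not tested.

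Of the values of single genes with all livers kept, 409 held their direction and side of the threshold, 4 gained a call and 13 lost one. Direction turned for Ifit3 on log2(FPKM + 1) (0.0065), on log2(FPKM + 0.1) (0.025) and with the replicate block (0.0011), and with the length trend removed for Oas3 (0.042), neither of them called. Irgm1 (-0.53 to -0.25), Iigp1 (-0.55 to -0.28), Ifi47 (-0.92 to -0.45), Ifih1 (-0.67 to -0.32), Oasl2 (0.36 to 0.90), Irf7 (0.26 to 0.61), Ifi44 (-0.75 to -0.38), Rtp4 (-0.36 to -0.13) and Ddx58 (-0.27 to -0.15) kept their sign without single livers. Leaving out single livers turned the log2 fold changes of Isg15 (-0.39 to 0.023), Ifit2 (-0.21 to 0.93), Ifit3 (-0.46 to 0.36), Ifit3b (-0.65 to 0.40), Oas1a (-0.44 to 0.18), Oas2 (-0.94 to 0.010), Oas3 (-0.26 to 0.11), Rsad2 (-0.32 to 1.17), Usp18 (-0.11 to 0.35), Ifi27 (-0.31 to 0.15), Ifi35 (-0.22 to 0.14), Dhx58 (-0.084 to 0.63), Gbp3 (-0.34 to 0.74), Gbp7 (-0.17 to 0.34), Irgm2 (-0.25 to 0.020), Xaf1 (-0.22 to 0.0099), Zbp1 (-0.0038 to 0.51), Cmpk2 (-0.16 to 0.46), Trim30a (-0.057 to 0.44) and Lgals3bp (-0.22 to 0.019).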

Other observations

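Chemokines induced by interferon were among the other response genes, and 3 of them are given here, chosen after their values were seen. Cxcl10 was at 3.70, 1.33 and 1.87 CPM with RD and 6.72, 4.34 and 7.94 CPM with HCD, without overlap (log2 fold change 1.45, adjusted p = 0.110). Cxcl9 was at 3.51, 2.86 and 11.4 CPM with RD and 11.9, 8.82 and 13.8 CPM with HCD (log2 fold change 0.94, adjusted p = 0.315). Cxcl11 lay the other way, at 1.54, 2.65 and 2.34 CPM with RD and 0.556, 0.965 and 1.22 CPM with HCD (log2 fold change -1.27, adjusted p = 0.192). None of the 3 was called in edgeR's quasi-likelihood test. Socs3, an inhibitor of Stat3 signalling also chosen after its values were seen, was at 14.2, 15.4 and 22.5 CPM with RD and 11.4, 2.96 and 3.65 CPM with HCD, with every HCD liver below every RD liver (log2 fold change -1.51, adjusted p = 0.125).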
